A study of Homo sapiens with 6 samples.

Results

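The genes described here copy the DNA of a dividing cell: those that license origins, open them, synthesise the strands, load and unload the sliding clamp, supply nucleotides and repack the new DNA. A list of 54 symbols was taken, and members were the genes on it with a mean of at least 1 CPM (the TMM-normalized level, reads of a gene scaled to library size) over all 6 libraries. Of the 54, 53 had a value, and all 53 passed that minimum, out of 13439 genes in the table and 11069 that passed the same minimum. The remaining member, UHRF1, was not analysed here. The libraries were bulk RNA-seq of Saos-2, an established human osteosarcoma cell line, kept for 24 h in 0.20 µM AIL (3 libraries) or in DMSO, the control treatment (3 libraries). AIL stands for ailanthone, a plant quassinoid, and per the labels this dose is its IC50. Both groups grew in the same serum-supplemented medium, and the labels name no genetic change in either. The labels call the 3 libraries of a group biological replicates but do not say whether they were separate cultures, and p-values measure only the spread between these 6 libraries, which may be technical.

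Depth, read from the step that 1 read is worth, was 32540000 to 35830000 reads of TMM-scaled library under DMSO and 35910000 to 38050000 under AIL. Saos-2 is known as an osteoblast-like line that carries a truncated RB1. Of 8 osteoblast markers, 3 had a value: RUNX2 lay at 4.36 to 5.04 CPM, SPP1 at 0.11 to 0.28 CPM and BGLAP at 0 to 0.16 CPM, while SP7, ALPL, IBSP, COL1A1 and COL1A2 were not analysed here. The Saos-2 label comes from the sample titles. The markers with a value were few and low, so they could do little to check it. Of 10 markers of other cell types, CDH5 and PDGFRA stayed at or under 0.16 CPM, CD68 (also a general lysosomal gene) went from 0.73 to 0.79 CPM under DMSO to 2.48 to 3.26 CPM under AIL, and the other 7 were not analysed here.

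Replication starts from origins bound by the origin recognition complex (ORC). In G1, CDC6 and CDT1 help ORC to load the MCM2 to MCM7 ring onto DNA, which licenses the origin, and geminin (GMNN) blocks CDT1 once S phase has begun. The kinase CDC7 with DBF4 then helps to turn the ring into the active CMG helicase (CDC45, MCM and GINS), behind which polymerases alpha, delta and epsilon copy the strands. Most of these genes are E2F targets, transcribed from late G1 into S phase, and RB restrains E2F in cells that have it.

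Most replication genes were slightly lower under AIL. Of the 53, 34 fell, 3 rose and 16 did not pass the test (limma on log2(CPM + 1), Benjamini-Hochberg adjusted p under 0.05 over all genes tested). That is 64.2% lower and 5.66% higher, beside 25.9% lower and 28.2% higher among all 11069 genes tested, and these shares of all genes are the background of every count that follows. The median log2 difference (AIL minus DMSO) of the 53 was -0.19, and that of all genes tested was 0.01. Without AIL replicate 2 the members that rose were 5, with CDC7 and TIPIN added, and with the replicate block they were 5, with RRM2 and TIPIN added. Changes were small: the differences ran from -0.40 (GINS1) to 0.37 (CDT1), and no member moved by 0.5 or more. Members lower by at least 0.3 numbered 10 (18.9%, and 5.62% of all genes tested). All 3 AIL values lay under all 3 DMSO values for 36 members and above them for 3, and this held for 29.2% and 30.9% of all genes tested. In bulk RNA, fewer cells in S phase and less of these transcripts per cell cannot be told apart.

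The summed level of the members was 5707 to 5799 CPM under DMSO and 5097 to 5201 CPM under AIL. Within the AIL group, replicate 2 held the lowest value for 32 of the 53 members, replicate 3 for 14 and replicate 1 for 7. Within the DMSO group, replicate 2 was also lowest most often, for 22 members, with 17 for replicate 1 and 14 for replicate 3. The 13 mitochondrially encoded transcripts, taken as a rough sign of RNA quality, were also mostly lower in the AIL libraries: 10 fell and none rose. Their median log2 difference was -0.20, with a range from -0.53 to 0.03. Their sums were 4205 to 4374 CPM under DMSO and 3600 to 3726 CPM under AIL. MT-CO1 (mean of 1821 CPM under DMSO) and MT-CO3 (1680 CPM) made up most of these sums. Whether these transcripts reflect RNA quality here was not tested. The part of these transcripts in the results below was not tested either.

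**Figure D1:**
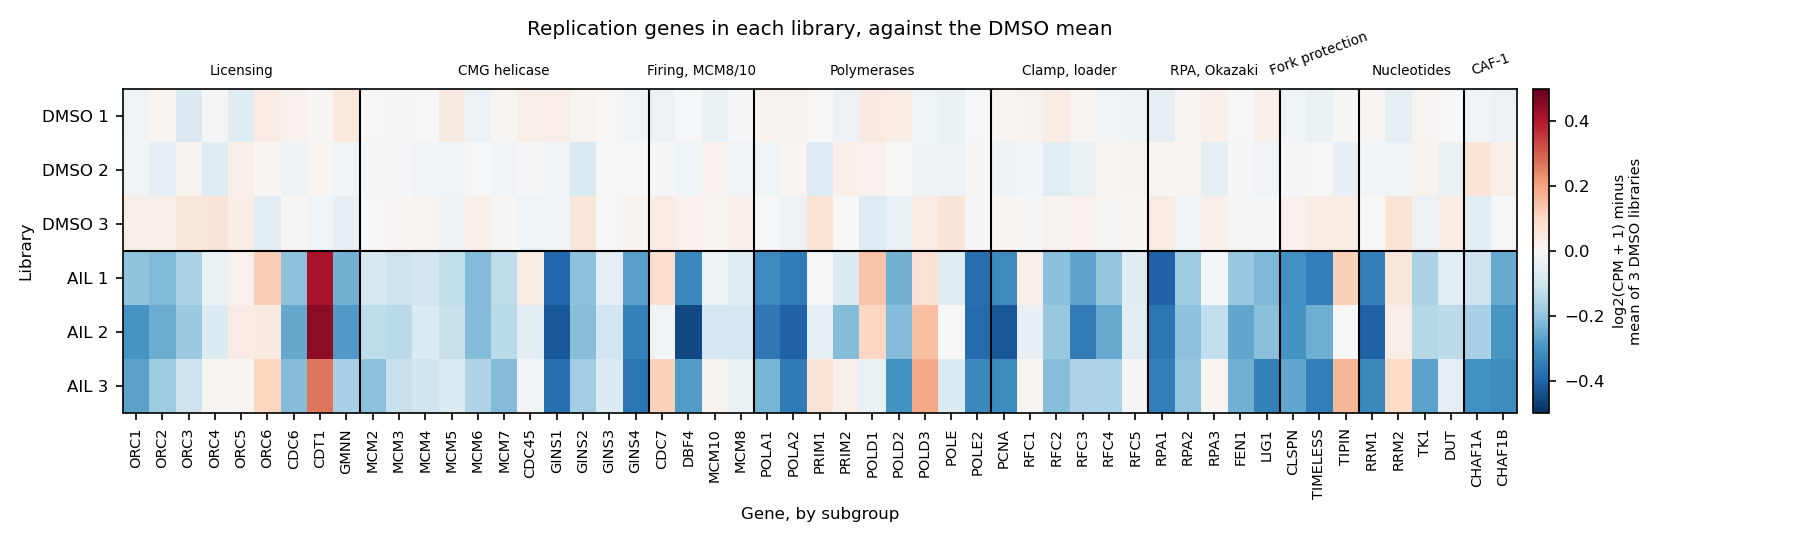
Each column is a replication gene, ordered by subgroup, and each row a library; colour gives log2(CPM + 1) minus the mean of the 3 DMSO libraries, from blue (lower) to red (higher). The AIL rows are mostly blue, GINS1 is among the darkest blue columns, and CDT1 is red in all 3 AIL libraries.

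Promoter elements were searched in the members. Most of these genes are known E2F targets, so a high share with an E2F element is no new result about them. Promoter windows of 300 bases (250 before to 50 after the start) from RefSeq, build GRCh38.p14, matched 47 of the 53 members by symbol; MCM4, MCM5, GINS4, POLD3, RPA2 and RPA3 were not matched. Where a gene had several listed starts (12 of the 47), the first was used. The E2F element was searched on both strands as TTTCCCGC, TTTGGCGC, TTTGCCGC or TTTCGCGC, and matches could overlap each other. It was present in 19 of 47 members (40.4%), against 3.33% of 27305 promoter windows of the same length and 5.73% of the 8486 tested genes with a window. Of the 19 with a match 15 fell and 1 rose, and of the 28 without a match 15 fell and 1 rose, and the medians of their log2 differences were -0.20 and -0.14. Over all tested genes with a window, the median was 0.00 with a match and 0.01 without. A CCAAT box (CCAAT, both strands) was present in 27 of the 47 members (57.4%) in 35.7% of all windows and in 37.3% of those of tested genes. The CHR element (TTTGAA or TTTAAA, both strands) was present in 4 members (8.51%), 24.3% of all windows and 15.1% of those of tested genes. These matches describe letters in a window and were not tested for binding.

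Stretches of up to 160 bases before the start are shown for genes with an E2F match, picked to cover all 3 outcomes. MCM6, PCNA and POLA1 fell, POLE did not pass the test and CDT1 rose. The picks do not show how often each outcome occurred: of the 19 members with a match 15 fell and only CDT1 rose. Whether a match goes with the outcome was not tested. Capitals mark the E2F matches, and each stretch reads 5′ to 3′ on the gene's strand in GRCh38.p14. MCM6 (chr2:135876444-135876603, minus strand) holds 4 matches that overlap in pairs. The others are PCNA (chr20:5126623-5126772, minus strand), POLA1 (chrX:24693768-24693917, plus strand), POLE (chr12:132687343-132687492, minus strand) and CDT1 (chr16:88803639-88803788, plus strand), each with 1 match.
MCM6: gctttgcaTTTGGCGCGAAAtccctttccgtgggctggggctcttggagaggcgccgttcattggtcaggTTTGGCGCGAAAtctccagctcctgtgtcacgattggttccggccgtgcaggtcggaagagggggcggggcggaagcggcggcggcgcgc
PCNA: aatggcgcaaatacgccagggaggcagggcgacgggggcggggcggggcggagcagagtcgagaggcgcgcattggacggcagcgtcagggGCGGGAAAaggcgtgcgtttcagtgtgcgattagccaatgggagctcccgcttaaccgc
POLA1: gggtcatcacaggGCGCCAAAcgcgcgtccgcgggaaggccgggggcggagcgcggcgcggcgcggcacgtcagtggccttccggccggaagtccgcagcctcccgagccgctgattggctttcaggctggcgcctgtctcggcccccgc
POLE: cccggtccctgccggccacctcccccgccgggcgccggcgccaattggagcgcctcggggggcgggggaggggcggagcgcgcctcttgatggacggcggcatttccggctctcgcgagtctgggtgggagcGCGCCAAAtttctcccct
CDT1: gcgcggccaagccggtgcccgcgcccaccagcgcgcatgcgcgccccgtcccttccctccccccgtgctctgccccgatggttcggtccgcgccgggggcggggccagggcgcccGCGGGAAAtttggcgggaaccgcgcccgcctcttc

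Among the 9 licensing genes, 5 fell and 2 rose. CDT1, which brings MCM rings to the origin and is destroyed in S phase, was the member with the largest rise. It read 28.6, 28.7 and 28.3 CPM under DMSO and 38.3, 39.3 and 34.6 CPM under AIL. All 3 AIL values were above all DMSO values, and the mean rose by 30.9% (log2 difference 0.37, SE 0.0470, limma adjusted p = 3.55e-06). GMNN, its inhibitor, moved the other way, with 52.1, 49.7 and 48.8 CPM under DMSO and 42.3, 41.1 and 44.7 CPM under AIL (log2 difference -0.23, SE 0.0404, limma adjusted p = 0.000132). CDC6, the ATPase that works with ORC and CDT1, read 124, 119.9 and 122 CPM under DMSO and 106, 102 and 105 CPM under AIL. Its groups did not overlap and its mean fell by 14.6% (log2 difference -0.23, SE 0.0287, limma adjusted p = 4.09e-06).

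ORC subunits fell in 3 of 6 cases and rose in 1. ORC2 read 90.4, 87.2 and 91.8 CPM under DMSO and 76.8, 75.4 and 79.2 CPM under AIL and fell (log2 difference -0.22, SE 0.0322, limma adjusted p = 2.21e-05). ORC1, the subunit whose level is tied to the cell cycle in human cells, fell from 41.9 ± 0.790 CPM under DMSO to 35.0 ± 1.21 CPM under AIL (means ± SD over 3 libraries; limma adjusted p = 3.63e-05), and ORC3 fell from 50.02 ± 2.31 to 45.0 ± 1.30 CPM (means ± SD over 3 libraries; limma adjusted p = 0.00468). ORC4 and ORC5 did not pass, with differences of -0.03 (95% interval -0.11 to 0.05) and 0.02 (-0.06 to 0.11). ORC6, the subunit least tightly held by the complex, was slightly higher, with 77.9, 76.3 and 73.0 CPM under DMSO and 82.6, 78.0 and 81.6 CPM under AIL (log2 difference 0.09, SE 0.0342, limma adjusted p = 0.0323). Its call was lost without DMSO replicate 2 (limma adjusted p = 0.064), DMSO replicate 3 (0.156) or AIL replicate 1 (0.128), and with no intensity trend (0.0869). For ORC4, 10.3% of the 50-base words of its GENCODE v29 transcript occur in other genes on the same strand and 15.5% on the other.

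Of the 11 CMG helicase genes 9 fell and none rose. All 6 MCM2 to MCM7 genes fell by little, with differences from -0.19 (MCM6) to -0.09 (MCM4) and no overlap between groups for any of them. MCM6 read 123, 126 and 127 CPM under DMSO and 108, 108 and 113 CPM under AIL (log2 difference -0.19, SE 0.0296, limma adjusted p = 2.90e-05). MCM7 went from 354 ± 2.69 CPM under DMSO to 317 ± 10.8 CPM under AIL and MCM2 from 180.4 ± 0.607 to 164 ± 7.20 CPM (means ± SD over 3 libraries; limma adjusted p = 9.08e-05 and 0.00112). MCM3, MCM4 and MCM5 had differences of -0.12, -0.09 and -0.10 (limma adjusted p = 0.000591, 0.00557 and 0.00669). The MCM5 call was lost without DMSO replicate 1 (limma adjusted p = 0.0594) and with quantile normalization (0.0982). On the opposite strand, 27.2% of the 50-base words of MCM2 and 10.2% of those of MCM7 occur in other genes, and the use of strand in counting is not given in the sources used here.

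GINS, which joins CDC45 to the ring, ranged more widely, from -0.40 (GINS1) to -0.07 (GINS3). GINS1 had the largest fall of all members, with 80.6, 78.1 and 77.8 CPM under DMSO and 59.7, 58.4 and 60.4 CPM under AIL. Its highest AIL value was under its lowest DMSO value and the mean fell by 24.5% (log2 difference -0.40, SE 0.0320, limma adjusted p = 1.83e-08). GINS4 read 37.6, 38.1 and 38.5 CPM under DMSO and 31.4, 29.9 and 29.3 CPM under AIL and fell by 20.7% (log2 difference -0.33, SE 0.0407, limma adjusted p = 3.48e-06), though 30.4% of its words occur in other genes on the opposite strand. GINS2 fell from 79.9 ± 3.93 to 69.5 ± 1.00 CPM (means ± SD over 3 libraries; limma adjusted p = 0.000179). GINS3 went from 47.6 ± 0.104 to 45.3 ± 0.795 CPM, with no overlap between groups but short of the threshold (limma adjusted p = 0.105), and 15.6% of its words occur on the opposite strand of other genes. CDC45 differed by -0.01 (95% interval -0.09 to 0.06).

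In the group of origin firing factors and MCM relatives, 1 of 4 fell, a share near the 25.9% of all genes tested. DBF4, the activator of the CDC7 kinase, read 74.4, 73.2 and 75.6 CPM under DMSO and 59.4, 54.2 and 61.1 CPM under AIL and fell by 21.7% (log2 difference -0.35, SE 0.0401, limma adjusted p = 1.23e-06). CDC7 itself read 41.5, 42.0 and 43.6 CPM under DMSO and 45.1, 41.9 and 46.0 CPM under AIL, and its groups overlapped (log2 difference 0.06, SE 0.0412, limma adjusted p = 0.204). Without AIL replicate 2, CDC7 passed as higher (limma adjusted p = 0.049). DBF4 shares 18.1% of its words with other genes, with its pseudogene DBF4P1 sharing the most. MCM8, an MCM relative used in recombination, read 150.4, 149.8 and 154 CPM under DMSO and 145, 143 and 147 CPM under AIL, a difference of -0.06 that missed the threshold (limma adjusted p = 0.0655). It passed with the replicate block (limma adjusted p = 0.0258), with median-of-ratios scaling (0.0385) and without AIL replicate 3 (0.0268). MCM10, which helps to start the helicase, differed by -0.03 (95% interval -0.10 to 0.04).

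Of the 9 replicative polymerase genes 4 fell (44.4%) and 1 rose (11.1%), beside 25.9% and 28.2% of all genes tested, and differences between subunits were tested only through the ratios given further on. Polymerase alpha, which with its primase lays down the first stretch of each new strand, was lower in both of its own subunits. POLA1, the catalytic one, read 109, 106 and 108 CPM under DMSO and 86.4, 84.1 and 91.8 CPM under AIL (log2 difference -0.30, SE 0.0335, limma adjusted p = 7.82e-07). POLA2 read 44.0, 43.9 and 42.6 CPM under DMSO and 33.9, 32.6 and 33.8 CPM under AIL (log2 difference -0.37, SE 0.0381, limma adjusted p = 3.45e-07), with 54.1% of its words also in other genes, with the annotated gene AP000944.2 sharing the most. The primase genes did not pass: PRIM1 read 36.5, 34.9 and 38.4 CPM under DMSO and 36.6, 35.3 and 38.4 CPM under AIL (95% interval of the difference -0.09 to 0.10). PRIM2 read 37.6, 39.1 and 38.5 CPM under DMSO and 36.6, 32.9 and 39.1 CPM under AIL (95% interval -0.19 to 0.02), and without AIL replicate 3 it passed as lower (limma adjusted p = 0.00797). PRIM1 and PRIM2 share 23.3% and 31.3% of their words with other genes.

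In polymerase epsilon, which copies the leading strand, POLE2 fell and the catalytic POLE did not pass the test. POLE read 113, 113 and 121 CPM under DMSO and 111, 116 and 110.3 CPM under AIL, with overlapping groups (log2 difference -0.04, SE 0.0328, limma adjusted p = 0.2999). POLE2 read 28.7, 28.9 and 28.6 CPM under DMSO and 21.9, 21.8 and 22.8 CPM under AIL and fell by 23.0% (log2 difference -0.36, SE 0.0436, limma adjusted p = 2.17e-06). Polymerase delta, the lagging-strand enzyme, held members on both sides. POLD2 fell from 111 ± 2.82 to 93.2 ± 2.74 CPM (means ± SD over 3 libraries; limma adjusted p = 3.87e-06). POLD3 rose, with 57.1, 56.9 and 59.6 CPM under DMSO and 60.9, 64.4 and 66.1 CPM under AIL (log2 difference 0.14, SE 0.0370, limma adjusted p = 0.00448). The catalytic POLD1 differed by 0.07 (limma adjusted p = 0.189) and passed as higher without AIL replicate 3 (limma adjusted p = 0.00424), with 11.1% of its words in other genes.

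**Figure D2:**
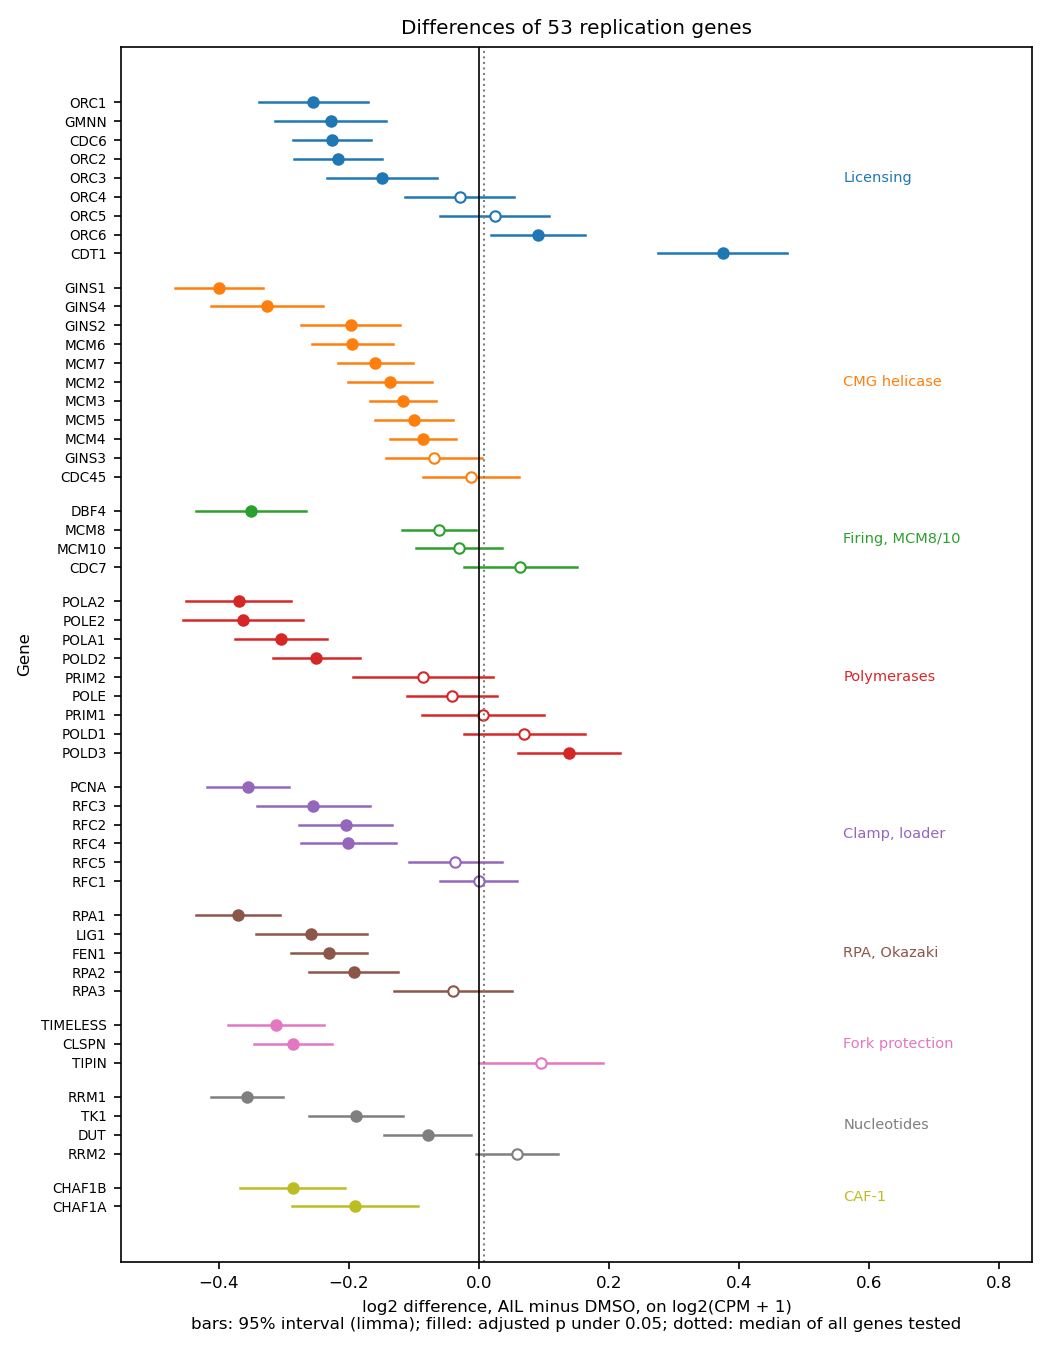
Points are log2 differences (AIL minus DMSO, on log2(CPM + 1)) of the 53 genes by subgroup, bars are 95% intervals from limma, filled points passed an adjusted p of 0.05 and the dotted line is the median of all genes tested. Most filled points lie left of 0, and the filled points to the right are ORC6, CDT1 and POLD3.

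Of the sliding clamp and its loader, 4 of 6 genes fell. PCNA, the clamp that tethers polymerases to DNA, read 335, 326 and 335 CPM under DMSO and 266, 247 and 266 CPM under AIL, and its mean fell by 21.8% (log2 difference -0.35, SE 0.0297, limma adjusted p = 2.91e-08). All AIL values lay under all DMSO values, with replicate 2 the lowest of the 3. RFC3 read 82.2, 79.7 and 82.7 CPM under DMSO and 67.7, 63.8 and 73.3 CPM under AIL. RFC2 read 71.3, 66.7 and 70.2 CPM under DMSO and 59.9, 60.7 and 59.7 CPM under AIL. Both loader subunits fell, by 0.25 and 0.20 on the log2 scale (limma adjusted p = 5.41e-05 and 6.92e-05). RFC4 fell from 62.6 ± 0.576 to 54.4 ± 1.84 CPM (means ± SD over 3 libraries; limma adjusted p = 0.000105). RFC1, the large subunit, and RFC5 differed by -0.00053 (95% interval -0.06 to 0.06) and -0.04 (-0.11 to 0.04), and 7.04% of the words of RFC5 occur on the opposite strand of other genes.

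Of the genes that coat single strands and finish Okazaki fragments, 4 of 5 fell. RPA1, the large subunit of the single-strand binding protein RPA, read 133, 138 and 141 CPM under DMSO and 104, 107 and 108 CPM under AIL. Its groups were well apart and its mean fell by 22.8% (log2 difference -0.37, SE 0.0308, limma adjusted p = 2.69e-08). RPA2 fell from 61.8 ± 0.844 to 53.9 ± 0.531 CPM (means ± SD over 3 libraries; limma adjusted p = 8.30e-05), and RPA3 differed by -0.04 (95% interval -0.13 to 0.05). FEN1, the flap nuclease, read 155, 153 and 155 CPM under DMSO and 135, 129 and 131 CPM under AIL (log2 difference -0.23, SE 0.0277, limma adjusted p = 2.07e-06), with 5.21% of its words on the opposite strand of other genes. LIG1, the ligase that seals the fragments, read 49.8, 48.4 and 48.7 CPM under DMSO and 41.8, 42.2 and 38.5 CPM under AIL (log2 difference -0.26, SE 0.0403, limma adjusted p = 3.87e-05).

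The fork protection genes link the helicase to the polymerases and to the checkpoint. CLSPN, the checkpoint adaptor claspin, read 118, 119 and 121 CPM under DMSO and 96.5, 96.9 and 99.5 CPM under AIL (log2 difference -0.29, SE 0.0284, limma adjusted p = 2.22e-07). TIMELESS read 81.6, 83.6 and 85.8 CPM under DMSO and 65.5, 70.4 and 65.8 CPM under AIL and fell by 19.6% (log2 difference -0.31, SE 0.0351, limma adjusted p = 1.00e-06). Its binding partner TIPIN read 36.1, 34.9 and 36.9 CPM under DMSO and 39.1, 36.0 and 40.5 CPM under AIL, with overlapping groups (log2 difference 0.09, SE 0.0452, limma adjusted p = 0.0867). TIPIN passed as higher with the replicate block (limma adjusted p = 0.0332) and without AIL replicate 2 (0.0152).

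For nucleotide supply, 3 of 4 genes fell. RRM1, the large subunit of ribonucleotide reductase, carried the smallest p-value of all members, with 368, 362 and 366 CPM under DMSO and 288, 276 and 292 CPM under AIL. The mean fell by 21.9% (log2 difference -0.36, SE 0.0263, limma adjusted p = 6.91e-09). RRM2, the small subunit that is made in S phase, read 292, 297 and 316 CPM under DMSO and 314, 307 and 321 CPM under AIL, with overlapping groups (log2 difference 0.06, SE 0.0299, limma adjusted p = 0.107). RRM2 passed as higher with the replicate block (limma adjusted p = 0.0249) and without DMSO replicate 3 (0.0169), and 31.2% of its words occur in other genes. TK1, the salvage thymidine kinase, read 113, 113 and 109.5 CPM under DMSO and 100.2, 101 and 92.9 CPM under AIL (log2 difference -0.19, SE 0.0341, limma adjusted p = 0.000159). DUT, which removes dUTP, read 113, 110.2 and 116 CPM under DMSO and 108, 103 and 109 CPM under AIL and was close to the threshold (log2 difference -0.08, SE 0.0315, limma adjusted p = 0.0427). Its call was lost with quantile normalization (limma adjusted p = 0.0922), with no filter (0.0536), with no intensity trend (0.115) and without DMSO replicate 1 (0.0914), DMSO replicate 3 (0.165) or AIL replicate 2 (0.183), and 15.4% of its words occur on the opposite strand of other genes.

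CHAF1A and CHAF1B are the larger subunits of CAF-1, which sets histones onto new DNA, and both fell. CHAF1A read 65.1, 68.9 and 63.1 CPM under DMSO and 61.0, 58.5 and 52.99 CPM under AIL (log2 difference -0.19, SE 0.0460, limma adjusted p = 0.00204). CHAF1B read 41.8, 43.8 and 42.6 CPM under DMSO and 35.7, 34.8 and 34.1 CPM under AIL (log2 difference -0.29, SE 0.0385, limma adjusted p = 7.51e-06). All AIL values of each gene lay under all DMSO values.

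Partners of the same complex or step were compared by their ratio in each library, for 8 pairs, with an exact two-sided permutation test whose smallest possible p is 0.1 with 3 against 3, so that no pair could pass 0.05. The test and the log2 changes used log2(CPM + 1), and the ratios given are of CPM itself. Transcript length cancels in such a change, but the ratio does not compare the levels of the partners. For CDT1 over GMNN, the ratios were 0.550, 0.578 and 0.580 under DMSO and 0.904, 0.956 and 0.773 under AIL, a change of 0.60 on the log2 scale. For RRM1 over RRM2 they were 1.26, 1.22 and 1.16 under DMSO and 0.920, 0.898 and 0.910 under AIL (-0.42). For CDC7 over DBF4 they were 0.558, 0.574 and 0.576 under DMSO and 0.760, 0.773 and 0.752 under AIL (0.41). In each of these pairs the AIL libraries lay wholly on one side of the DMSO libraries.

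The ratio of TIMELESS to TIPIN was 2.26, 2.39 and 2.32 under DMSO and 1.68, 1.96 and 1.62 under AIL, a log2 change of -0.41, and that of POLE to POLE2 was 3.94, 3.93 and 4.22 under DMSO and 5.07, 5.33 and 4.84 under AIL (0.32). These 5 pairs reached the smallest p the design allows (exact permutation p = 0.1, 0.16 adjusted over the 8 pairs). How often ratios of other gene pairs separate in this way was not examined. Among all single genes tested, the AIL values lay wholly under the DMSO values for 29.2% and wholly above them for 30.9%. Groups overlapped for PRIM1 over PRIM2 (0.970, 0.892 and 0.996 under DMSO and 0.999, 1.07 and 0.980 under AIL; exact permutation p = 0.2) and for CHAF1A over CHAF1B (1.56, 1.57 and 1.48 under DMSO and 1.71, 1.68 and 1.55 under AIL; exact permutation p = 0.3). For POLA1 over POLA2 (2.49, 2.42 and 2.54 under DMSO and 2.55, 2.58 and 2.71 under AIL) the groups overlapped on log2(CPM + 1) (exact permutation p = 0.2) but not as plain ratios of CPM (exact permutation p = 0.1). Between same-numbered libraries the AIL ratio was above the DMSO ratio in 3 of 3 for POLA1 over POLA2 and for CHAF1A over CHAF1B, and in 2 of 3 for PRIM1 over PRIM2.

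**Figure D3:**
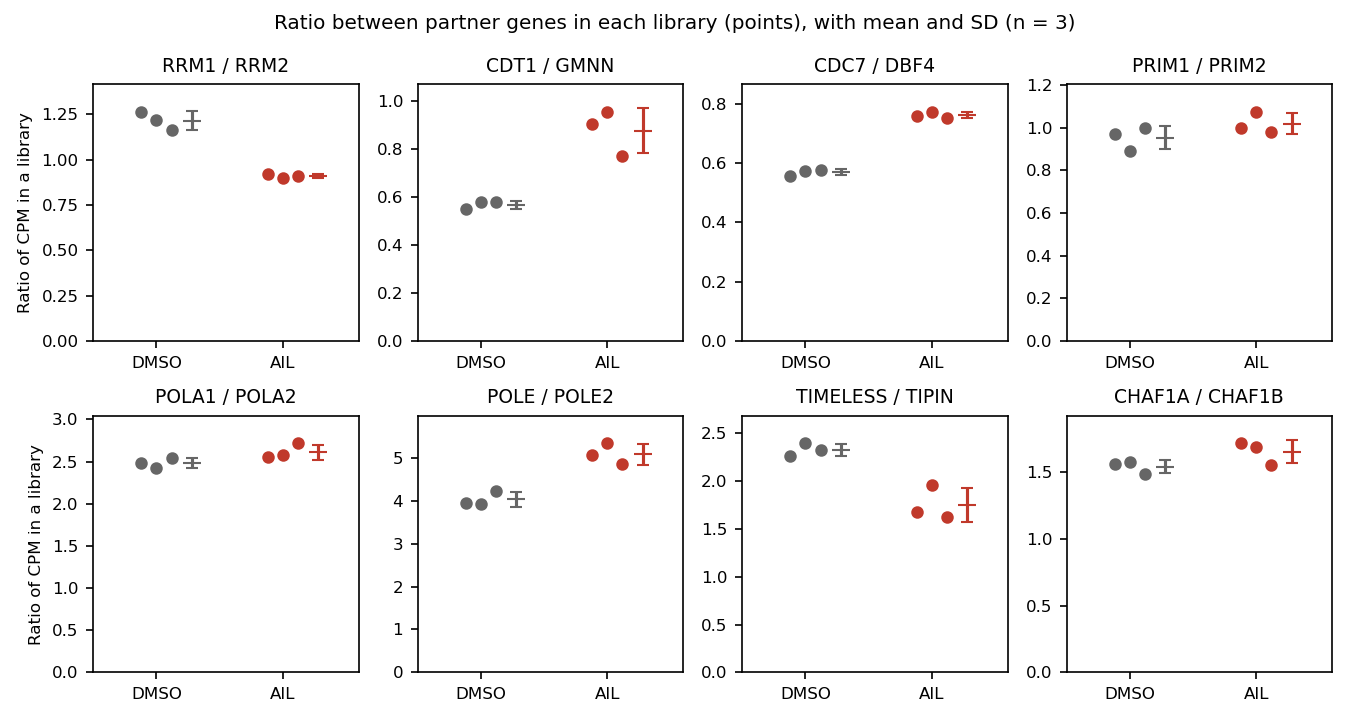
Points are the ratio of CPM between partner genes in each library (grey DMSO, red AIL), with the mean and SD (n = 3) beside them and axes from 0. The groups are apart for RRM1/RRM2, CDT1/GMNN, CDC7/DBF4, POLE/POLE2 and TIMELESS/TIPIN, and narrowly for POLA1/POLA2 on this scale of plain ratios.

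Levels per length were compared within DMSO, using the principal transcript of each gene in GENCODE v29, which may differ from the annotation the authors used. PCNA was the most abundant member, at 244 ± 3.69 CPM per kb (SD, n = 3), followed by MCM7 at 119.9 ± 0.910 and RRM1 at 118.9 ± 0.973 CPM per kb, which differed by less than the SD of RRM1. ORC4 (7.34 ± 0.323 CPM per kb) and CDT1 (8.82 ± 0.0700 CPM per kb) were the lowest. The place of ORC4 rests on a long transcript of 6710 bases. Before division by length, its DMSO mean of 49.3 CPM lay above the 28.6 CPM of CDT1. With these lengths the ring subunits were not level: MCM4 lay at 91.1 ± 1.03, MCM3 at 81.0 ± 0.503, MCM5 at 51.1 ± 1.43, MCM2 at 49.8 ± 0.168 and MCM6 at 33.5 ± 0.607 CPM per kb. MCM5 and MCM2 differed by less than the SD of MCM5, and the other neighbours in this order by more than their SDs. These SDs measure only the spread between libraries. The order also depends on the transcript chosen for each gene, and other transcripts were not tried. Across the 53 genes, Spearman's rho of the AIL difference was -0.14 with transcript length, -0.06 with GC content and -0.18 with the DMSO CPM, given as a description since the points share the same 6 libraries.

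Other replication genes, from a list of 42 that holds no member, were lower as well. Of the 42, 27 fell and 3 rose, and their median log2 difference was -0.15. Among those with the smallest p were TOP2A (-0.53), which untangles DNA, CCNA2 (-0.32), the S-phase cyclin A, SAMHD1 (-0.32), a dNTP hydrolase, TYMS (-0.33) and RECQL4 (-0.44), a helicase needed to fire origins. TYMS, the thymidylate synthase, read 94.7, 98.8 and 99.5 CPM under DMSO and 73.0, 81.1 and 79.0 CPM under AIL (limma adjusted p = 1.22e-06). RECQL4 read 80.8, 78.0 and 75.5 CPM under DMSO and 60.8, 59.4 and 51.9 CPM under AIL (limma adjusted p = 5.78e-07). Those that rose were POLE4 (0.15), a small polymerase epsilon subunit, RNASEH2B (0.13), of the enzyme that removes ribonucleotides from DNA, and DCTD (0.10), which makes dUMP. DNMT1, the maintenance methyltransferase, differed by -0.04 (limma adjusted p = 0.225).

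Mitotic genes had a lower median than replication genes in the same libraries. Of 20 mitotic genes, among them spindle genes, kinases and cyclins, 18 fell and none rose. Their median log2 difference was -0.31, beside -0.19 for the 53 replication genes, and this gap was not tested. TPX2, CENPF and CCNB1 had the smallest p, with differences of -0.47, -0.45 and -0.39.

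**Figure D4:**
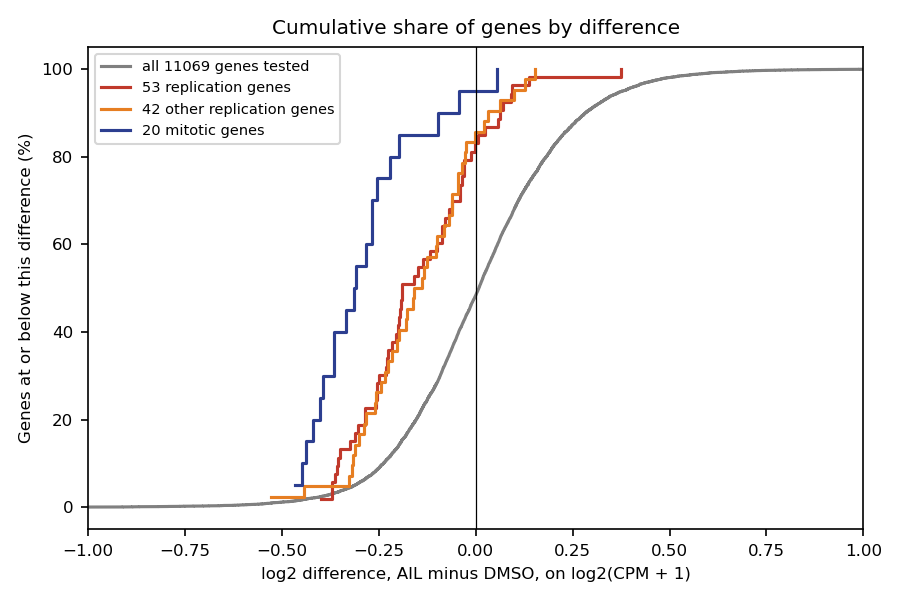
Curves give the percentage of genes at or below each log2 difference (AIL minus DMSO, on log2(CPM + 1)) for all 11069 genes tested, the 53 replication genes, 42 other replication genes and 20 mitotic genes; the axis is cut at -1 and 1. The curves of both replication lists run close together over most of the range. In the middle of the range they lie left of that of all genes and right of that of the mitotic genes. The order differs in the lower tail: 1.16% of all genes and 0% of the 53 replication genes lie at or below -0.5.

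Several members start back to back with another gene, so that a short stretch of DNA lies between both starts. By the RefSeq starts, 14 members had a divergent neighbour starting within 1000 bases, and for 12 of them the neighbour was tested. Of these 12 members 8 fell, and of the 12 neighbours 3 fell, 3 rose and 6 did not pass, which is close to the 25.9% lower and 28.2% higher of all genes tested. The median log2 differences were -0.17 for the members and 0.01 for the neighbours. Among the 8 members that fell, the neighbour fell for 2, rose for 3 and did not pass for 3. Differences between a member and its neighbour were not tested.

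ORC1 and the splicing factor gene PRPF38A start 179 bases apart. PRPF38A went from 69.2 ± 0.592 to 89.5 ± 2.38 CPM (means ± SD over 3 libraries; log2 difference 0.37, limma adjusted p = 3.78e-08), while ORC1 fell. TK1 and AFMID, a formamidase gene of tryptophan breakdown, start 158 bases apart, and AFMID went from 16.0 ± 0.312 to 18.8 ± 0.866 CPM (means ± SD over 3 libraries; log2 difference 0.21, limma adjusted p = 0.00233) while TK1 fell. ORC3 fell and RARS2, a mitochondrial arginyl-tRNA synthetase gene, went from 38.4 ± 0.709 to 45.2 ± 0.541 CPM (means ± SD over 3 libraries; log2 difference 0.23, limma adjusted p = 4.04e-05). MAP2K1, beside TIPIN, fell from 64.8 ± 1.04 to 55.1 ± 1.83 CPM (means ± SD over 3 libraries; log2 difference -0.23, limma adjusted p = 2.71e-05). TIPIN itself did not pass the test (log2 difference 0.09, limma adjusted p = 0.0867). PCNA and CDS2, a CDP-diacylglycerol synthase gene, fell together, with CDS2 going from 152 ± 3.11 to 124 ± 1.59 CPM (means ± SD over 3 libraries; log2 difference -0.29, limma adjusted p = 1.40e-07), and so did DBF4 and SLC25A40 (-0.20). The stretches between the starts are shown for ORC1 and TK1, since opposite calls lay on either side of them. Each reads 5′ to 3′ toward the replication gene in GRCh38.p14 from the first base of the neighbour to the base before its own start: ORC1 (chr1:52404424-52404602, minus strand), with a CCAAT box (read as its complement) in capitals, and TK1 (chr17:78187205-78187362, minus strand), with a TTTAAA match in capitals.
ORC1: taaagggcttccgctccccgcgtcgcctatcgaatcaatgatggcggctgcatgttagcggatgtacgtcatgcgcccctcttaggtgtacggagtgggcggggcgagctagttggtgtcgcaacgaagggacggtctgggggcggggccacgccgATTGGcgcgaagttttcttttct
TK1: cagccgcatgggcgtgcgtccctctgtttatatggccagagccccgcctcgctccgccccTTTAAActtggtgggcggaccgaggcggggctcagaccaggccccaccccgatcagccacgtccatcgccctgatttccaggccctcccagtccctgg

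**Figure D5:**
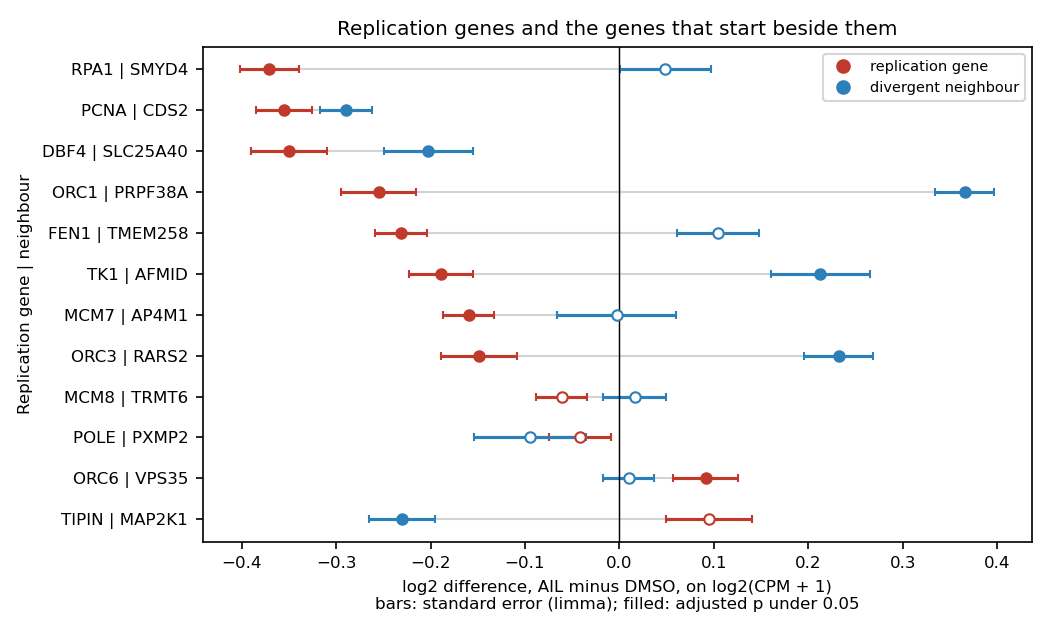
Each row is a replication gene (red) and the gene that starts beside it on the other strand (blue), with log2 differences (AIL minus DMSO, on log2(CPM + 1)), standard errors from limma as bars, and filled points for an adjusted p under 0.05. PCNA and CDS2 lie close together, and ORC1 and PRPF38A are the farthest apart.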

How the data were processed

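The authors deposited 1 table of TMM-normalized CPM for the 6 libraries, given to 2 decimals. The submitters' processing notes name RSEM and edgeR 3.8.5 without saying what each did. No aligner, genome build, annotation or strand setting is named in the sources used here. TMM scaling sets the bulk of genes to no difference, so a shift shared by nearly all transcripts would be hidden. Per library, 99.95 to 99.98% of the low values lay within 0.2 reads of a whole multiple of 1 read, about as near as 2 decimals allow, and 52.4 to 65.1% within 0.1 reads. Recovered reads were to be used only where 95% lay within 0.1 reads, so the planned count tests were left out by that tolerance and not because the values lack whole reads. The variance between libraries of 1 group was 1.29 to 2.80 times that of counting noise.

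Genes averaging 1 CPM or more over the 6 libraries were fitted with limma 3.58.1 (R 4.3.3) on log2(CPM + 1), with an intensity trend, no covariate and a two-sided test. A Benjamini-Hochberg adjusted p under 0.05 over all genes tested was a call. Fold changes on this scale understate the change of low genes. Ratios were tested with scipy 1.17.1. The fit was also run on simulated data with a fixed spread and few changed genes, unlike these data. Its outcome is not reported here, and it gives no support for the calls. The members and lists were chosen with earlier results of these data known. Every member is named, and values in every library are given for the 3 smallest p of each subgroup, members that rose and the partner pairs. Of the other replication genes, the 6 smallest p, of which 1 is not reported here, and those that rose are named, and of other lists up to 3.

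Whether equal replicate numbers pair the libraries was examined by deviations from the group means. These correlated at 0.159, 0.133 and 0.129 for equal numbers and at -0.179 to 0.021 otherwise. Deviations of 3 libraries from their own mean sum to 0, so positive values for equal numbers push the others below 0. The contrast is thus partly built in and cannot decide whether the libraries are paired. Any pairing used here comes from the data alone. Alternatives were a replicate block, other pseudocounts, filters and scalings, no trend, and leaving out each library. Ratios with no pseudocount and between same-numbered libraries were added after seeing the data. Word sharing is the percentage of the 50-base words of a gene's GENCODE v29 principal transcript found in transcripts of other genes.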

Additional observations from a re-analysis of the deposited data

How the results depend on the processing

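Over the 14 alternatives that were run, 32 to 36 of the 53 members were lower and 2 to 5 higher, and 32 to 34 of the 34 that fell kept that call. The planned edgeR and DESeq2 fits were not run, because the values missed the tolerance of 0.1 reads set for recovered reads, although nearly all lay within 0.2 reads. With the replicate block 35 members were lower and 5 higher: RRM2 and TIPIN passed as higher and MCM8 as lower, which gave 1 higher among fork protection, 1 higher in nucleotide supply and 2 lower among firing factors, and the block changed no other call of a member. Median-of-ratios scaling also gave 2 lower firing factors, and fitting no trend left 1 licensing gene higher. Quantile normalization moved the median log2 difference of the CMG helicase to -0.098 and that of the Okazaki group to -0.209.

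Leaving out 1 library in turn gave 2 to 5 members higher, 0 to 1 in fork protection, 0 to 1 in nucleotide supply, 0 to 1 higher and 1 to 2 lower among firing factors, 1 to 2 in licensing and 1 to 2 among polymerases. The median ran from -0.142 to -0.0642 for polymerases and from -0.251 to -0.216 for the Okazaki group. Uncalled members near 0 changed sign: CDC45 (-0.0370 to 0.0110 over the libraries left out), ORC4 (-0.0595 to 0.00240), ORC5 (-0.00710 to 0.0421), PRIM1 (-0.0258 to 0.0401, and -0.00440 with quantile and -0.00291 with median-of-ratios scaling), RFC1 (-0.0157 to 0.0198, and 0.0162 with quantile) and RPA3 (-0.0643 to 0.00223). Of the 742 values of single members, 708 kept direction and call. The causes of these changes were not tested. With 3 libraries a group, no ratio test could give p under 0.1. Taken between same-numbered libraries (replicate block), an exact sign-flip test cannot go below 0.25, which 7 of the 8 pairs reached (PRIM1 over PRIM2 gave 0.5).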

Other observations

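G1 cyclin, CDK inhibitor, E2F and RB genes are given here as values. Of 10 tested G1 cyclins, their kinases and CDK inhibitors, 3 fell (30%) and 2 rose (20%), near the 25.9% and 28.2% of all genes tested, and the median of their log2 differences was -0.06. CDK6, a cyclin D kinase, read 138, 139.8 and 140 CPM under DMSO and 179, 176 and 179.6 CPM under AIL (log2 difference 0.35, SE 0.0257, limma adjusted p = 5.68e-09), and CDK4 rose as well (0.13; limma adjusted p = 0.00169). CDKN2C, an inhibitor of both kinases, fell (-0.21; limma adjusted p = 0.000655). Of 18 E2F, RB and partner genes 7 fell (38.9%) and 1 rose (5.56%), beside the same shares of all genes, and their median was -0.07. TFDP1, the dimer partner of E2F proteins, read 149, 152 and 147 CPM under DMSO and 126, 123 and 124 CPM under AIL (log2 difference -0.26, SE 0.0272, limma adjusted p = 4.09e-07), and MYBL2 and RBL2 fell by 0.18 and 0.17 on the log2 scale (limma adjusted p = 8.58e-05 and 0.000291).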
